A study of Homo sapiens with 3 samples.

Results

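Transcript levels of 10 Wnt/beta-catenin genes were followed across a knockout of SIRT7, a knockout of USP39 and a control. The labels name the cells Hep3B, a line from a human liver cancer (hepatocellular carcinoma). The genes are RNF43, ZNRF3, AXIN1, AXIN2, NKD1, LGR4, TCF7, TCF7L2, LEF1 and CTNNB1. They were chosen by name as targets, feedback inhibitors and effectors of the pathway and matched by symbol to the Ensembl identifiers of the count table, where all 10 were found among 22827 genes. The choice was made with the lower values of RNF43, AXIN2 and NKD1 in SIRT7-KO already known, so those differences are descriptions. The SIRT7-KO, USP39-KO and control groups had 1 library each. SIRT7 is a nuclear NAD-dependent deacylase and USP39 a spliceosomal ubiquitin-specific protease homologue. The labels do not say how the knockouts were made or whether each line was 1 clone, and no treatment is named for any group.

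In the canonical Wnt pathway, a ligand bound to a Frizzled receptor and its LRP5 or LRP6 co-receptor stops a destruction complex, built on AXIN scaffolds, from marking beta-catenin for degradation. Beta-catenin then binds DNA-bound factors of the TCF/LEF family and switches on target genes. Several targets, among them AXIN2, RNF43, ZNRF3, NKD1 and LEF1, encode parts or brakes of the same pathway, and AXIN2 is widely used as a readout of its activity. In the liver the pathway sets the gene programme of hepatocytes around the central vein, and it is often mutated in hepatocellular carcinoma.

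Counts summed to 16151522 in SIRT7-KO, 16630636 in USP39-KO and 19427940 in the control. USP39 still had 1066 reads in USP39-KO (64.8 CPM, against 94.1 CPM in the control), and SIRT7 had 608 reads in SIRT7-KO (37.3 CPM, against 50.6 CPM in the control). Both genes were lower in their own knockout than in the control, but an edit of a few bases can leave reads in place, so gene counts do not check the knockouts. CPM are counts scaled to a common, TMM-normalized library size. Of 10 hepatocyte markers, 6 (ALB, AFP, TTR, APOB, APOA2 and GPC3) had no read in any library and 8 had under 10 reads in each, so the markers that define the labelled cell type were nearly absent. The hepatocyte list summed to 0.613 CPM in SIRT7-KO and 1.94 CPM in USP39-KO, against 8.85 CPM in the control. Most of the control sum was HNF4A and FGB, both lower in both knockouts. HNF4A had 7 reads in SIRT7-KO and 29 in USP39-KO, against 113 in the control, and FGB had 2 and 1, against 55. The part of the hepatocyte list in the results below was not tested. Epithelial markers summed to 1718, 1587 and 2069 CPM in SIRT7-KO, USP39-KO and the control, with KRT19 at 0. Most of this was KRT8, at 1603, 1481 and 1940 CPM. EPCAM, an epithelial adhesion molecule, had 7 reads in SIRT7-KO and 21 in USP39-KO, against 37 in the control (log2 ratio -2.08 in SIRT7-KO, -3.56 to -0.97), and CDH1 was also lower in SIRT7-KO (-1.28). The part of these epithelial markers in the results was not tested. Fibroblast markers summed to 114, 140 and 118 CPM in the same order with COL1A2 at 0, most of it COL1A1 (93.3, 125.8 and 101.8 CPM). Endothelial markers (with KDR at 0) and blood markers (with PTPRC and CD68 at 0) stayed at or under 4.78 CPM in every library. A gene listed at 0 is not thereby shown to be silent, since the ribosomal protein genes RPL7A and RPS18 were also at 0 in all 3 libraries.

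With 1 library per group no test was possible. Each difference is given as a log2 ratio of normalized counts, with the knockout on top, and an exact 95% interval that covers counting error only and not the spread between cultures. Below, higher or lower by the 2-fold rule means a difference of 2-fold or more with an interval that excludes 0.

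In SIRT7-KO, 4 of the 10 genes (RNF43, AXIN2, NKD1 and TCF7) were lower by this rule and 0 were higher. Among all 12726 genes that reached 10 counts in some library, 4.05% were lower and 3.02% higher. In USP39-KO, 2 of the 10 (RNF43 and TCF7) were lower and 0 higher, where 3.37% of all genes were lower and 1.49% higher. Both comparisons share the 1 control library, so their ratios are not independent of each other. In bulk RNA, fewer cells that express a gene and less of its RNA per cell cannot be told apart. All 10 genes passed the count filter. Their median log2 ratio was -0.54 in SIRT7-KO, against -0.01 over all genes, and -0.14 in USP39-KO, against 0.00 over all genes. RNF43, AXIN2 and NKD1 were known to be lower in SIRT7-KO when the genes were chosen. The SIRT7-KO count and median therefore partly restate that choice, and of the other genes TCF7 alone passed the rule.

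**Figure D1:**
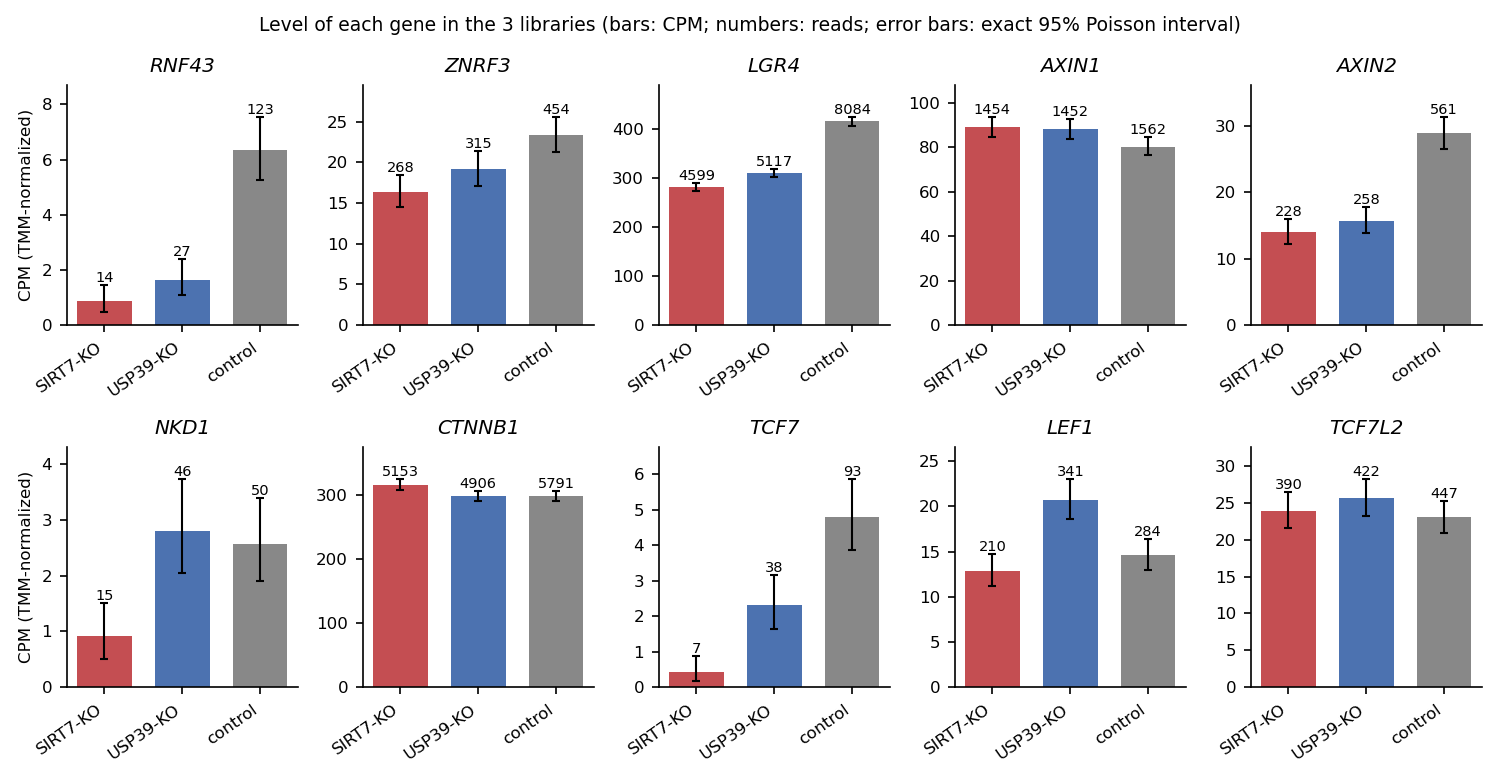
Normalized level in CPM (vertical axes, from 0, a separate scale for each gene) of the 10 genes in the SIRT7-KO, USP39-KO and control libraries. Bars are single libraries, numbers are read counts and error bars are exact 95% Poisson intervals of the count; RNF43, AXIN2 and TCF7 are lowest in SIRT7-KO and highest in the control, while CTNNB1 lies between 298 and 316 CPM.

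Promoter sequence was examined for RNF43 and TCF7, the 2 genes lower by the 2-fold rule in both knockouts, to show what lies at their annotated starts. RefSeq windows (GRCh38.p14) of 250 bases before to 50 bases after a transcript start were at hand for 7 of the 10 genes, in 11 windows. RNF43 and TCF7 had 2 alternative starts each, and the counts do not tell which start was used. The windows are printed 5′ to 3′ on the strand of the gene, with capitals for a TCF/LEF-type heptamer. They are chr17:58417485-58417784 (minus strand), chr17:58402672-58402971 (minus strand), chr5:134115363-134115662 (plus strand) and chr5:134123368-134123667 (plus strand).
RNF43 upstream start: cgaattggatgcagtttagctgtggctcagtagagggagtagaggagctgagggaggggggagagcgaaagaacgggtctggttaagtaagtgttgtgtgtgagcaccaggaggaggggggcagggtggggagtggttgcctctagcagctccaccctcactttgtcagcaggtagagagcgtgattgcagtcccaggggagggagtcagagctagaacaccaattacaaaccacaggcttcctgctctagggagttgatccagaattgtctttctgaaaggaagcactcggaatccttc
RNF43 downstream start: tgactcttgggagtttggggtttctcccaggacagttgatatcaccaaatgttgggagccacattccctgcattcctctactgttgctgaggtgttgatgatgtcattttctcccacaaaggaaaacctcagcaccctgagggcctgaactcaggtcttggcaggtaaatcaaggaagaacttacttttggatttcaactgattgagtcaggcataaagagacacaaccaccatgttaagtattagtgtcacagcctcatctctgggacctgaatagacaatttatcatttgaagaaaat
TCF7 upstream start: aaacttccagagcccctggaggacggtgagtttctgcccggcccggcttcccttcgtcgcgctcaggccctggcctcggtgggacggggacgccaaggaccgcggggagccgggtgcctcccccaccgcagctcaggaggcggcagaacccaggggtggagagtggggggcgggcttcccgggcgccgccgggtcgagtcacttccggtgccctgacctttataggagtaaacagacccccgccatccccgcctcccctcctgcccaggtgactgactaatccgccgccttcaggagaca
TCF7 downstream start: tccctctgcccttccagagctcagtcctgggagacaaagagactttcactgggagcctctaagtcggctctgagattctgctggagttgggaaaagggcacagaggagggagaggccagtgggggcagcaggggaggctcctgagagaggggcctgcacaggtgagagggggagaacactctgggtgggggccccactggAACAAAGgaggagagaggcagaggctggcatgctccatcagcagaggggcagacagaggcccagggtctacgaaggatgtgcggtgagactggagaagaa

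The letters searched were CTTTG followed by 2 bases that are each A or T, on either strand. Of 35116 windows of this length over all genes, 13.8% held at least 1 of them. Among the 11 windows, which cover 7 of the 10 genes, 2 did. No window was at hand for ZNRF3, AXIN2 or NKD1, so the starts of these genes were not searched. The downstream start of TCF7 had a match to the reverse strand (in capitals above), beginning 50 bases before the start, and 1 of 3 TCF7L2 windows had a match. Neither RNF43 window held these letters. A match is a description of the sequence and not a binding site.

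The first group of genes acts at the cell surface. RNF43 and ZNRF3 are related transmembrane E3 ubiquitin ligases that remove Frizzled receptors from the membrane, and LGR4 is a receptor for R-spondins, which take these ligases away. RNF43 (ENSG00000108375; chromosome 17, 58352500 to 58417595, minus strand; coordinates here and below are from GENCODE 29 on GRCh38, and the sources used here name no build for the count table) had 14 reads in SIRT7-KO and 27 in USP39-KO, against 123 in the control. These are 0.858 and 1.64 CPM in the knockouts, against 6.33 CPM in the control. Both knockouts lay far below the control, and their Poisson intervals overlapped each other but not that of the control.

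The SIRT7-KO level of RNF43 was 0.139 times that of the control (log2 ratio -2.84, -3.80 to -2.08), and the USP39-KO level was 0.262 times (-1.93, -2.61 to -1.34). Of all 12726 genes, 0.959% had a lower ratio than RNF43 in SIRT7-KO and 1.30% in USP39-KO. Between the knockouts the log2 ratio of SIRT7-KO over USP39-KO was -0.91, with an interval of -1.98 to 0.05, so a difference between them was not detectable at this depth. The annotated exons of RNF43 overlap those of SUPT4H1, which had 233 reads in SIRT7-KO and 379 in USP39-KO, against 412 in the control. Both genes lie on the minus strand, so reads in the shared stretch cannot be assigned with certainty, whether or not counting used strand.

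ZNRF3 (ENSG00000183579; chromosome 22, 28883592 to 29057487, plus strand) had 268 reads in SIRT7-KO and 315 in USP39-KO, against 454 in the control, or 16.4 and 19.1 CPM against 23.4 CPM. Its log2 ratio was -0.51 in SIRT7-KO (-0.73 to -0.29) and -0.29 in USP39-KO (-0.50 to -0.08). The intervals lay below 0 but the gene did not pass the 2-fold rule in either knockout. Within the pair, RNF43 held 4.96% of the RNF43 and ZNRF3 reads in SIRT7-KO (exact binomial 95% interval 2.74 to 8.19%) and 7.89% in USP39-KO (5.27 to 11.3%), against 21.3% in the control (18.0 to 24.9%). The share does not depend on the normalization. It uses the RNF43 value by which the genes were chosen and 1 library per group, so it is a description of these libraries.

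LGR4 (ENSG00000205213; chromosome 11, 27365961 to 27472775, minus strand) was the gene with the most reads of the 10 in the control. It had 4599 reads in SIRT7-KO and 5117 in USP39-KO, against 8084 in the control, or 281.8 and 310.9 CPM against 416 CPM. The log2 ratio was -0.56 in SIRT7-KO (-0.61 to -0.51) and -0.42 in USP39-KO (-0.47 to -0.37). LGR4 was thus at 0.677 and 0.747 times its control level in SIRT7-KO and USP39-KO, below 2-fold but with narrow intervals. SIRT7-KO was also slightly below USP39-KO (log2 ratio -0.14, -0.20 to -0.08).

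**Figure D2:**
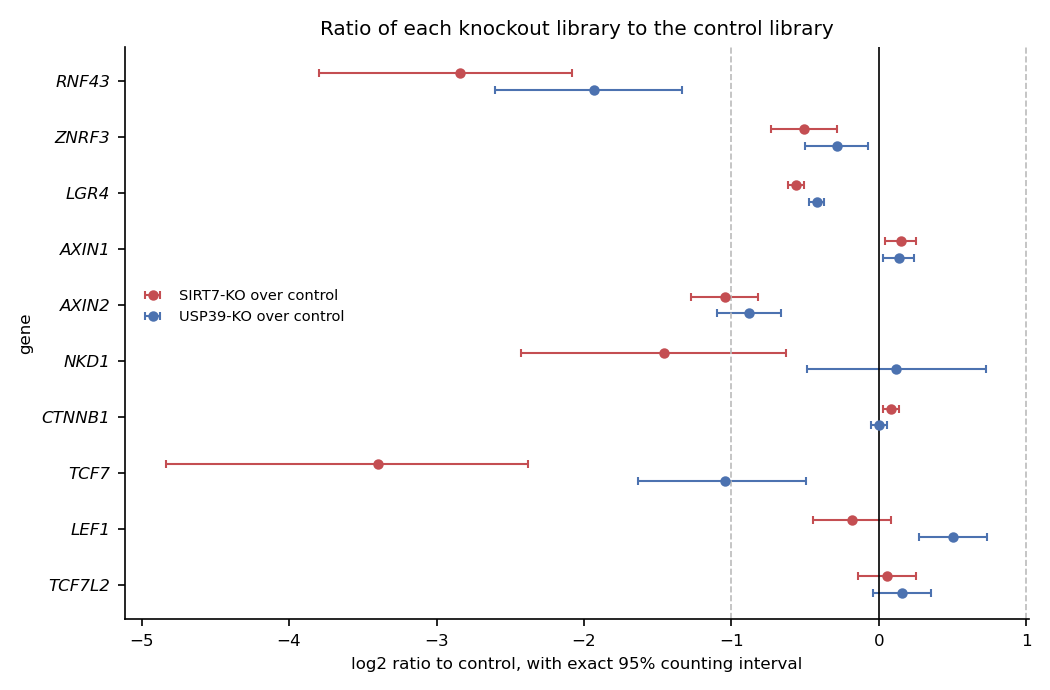
Log2 ratio of SIRT7-KO (red) and USP39-KO (blue) over the control (horizontal axis) for each of the 10 genes, with exact 95% counting intervals; dashed lines mark 2-fold. RNF43 and TCF7 lie beyond 2-fold lower in both knockouts, AXIN2 lies at -1.05 in SIRT7-KO and -0.88 in USP39-KO, and NKD1 lies beyond it in SIRT7-KO at -1.46 but at 0.12 in USP39-KO.

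The second group acts in the cytoplasm. AXIN1 and AXIN2 are the scaffolds of the destruction complex, of which AXIN2 is the Wnt-induced one, and NKD1 is a Dishevelled-binding inhibitor of the pathway that is itself induced by it. AXIN2 (ENSG00000168646; chromosome 17, 65528563 to 65561647, minus strand) had 228 reads in SIRT7-KO and 258 in USP39-KO, against 561 in the control. These are 14.0 and 15.7 CPM in the knockouts, against 28.9 CPM in the control, so the knockouts lay close together and below the control.

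The log2 ratio of AXIN2 was -1.05 in SIRT7-KO (-1.28 to -0.82) and -0.88 in USP39-KO (-1.10 to -0.67). The 2-fold line fell between these values. AXIN2 was the gene just inside the rule in SIRT7-KO, where LGR4 was the nearest outside it at -0.56, and in USP39-KO it was the nearest outside the rule, where TCF7 was just inside at -1.04. The direct ratio of SIRT7-KO over USP39-KO was -0.17 with an interval of -0.43 to 0.10, so a difference between the knockouts was not detectable at this depth. Passing the rule in SIRT7-KO and not in USP39-KO therefore does not show a difference between them.

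AXIN1 (ENSG00000103126; chromosome 16, 287440 to 352673, minus strand) had 1454 reads in SIRT7-KO and 1452 in USP39-KO, against 1562 in the control. Normalized, these were 89.1 and 88.2 CPM in the knockouts, against 80.4 CPM in the control. Its log2 ratio was 0.15 in SIRT7-KO (0.04 to 0.25) and 0.13 in USP39-KO (0.03 to 0.24), both slightly above 0. AXIN2 made up 13.6% of AXIN1 and AXIN2 reads in SIRT7-KO (12.0 to 15.3%) and 15.1% in USP39-KO (13.4 to 16.9%), against 26.4% in the control (24.6 to 28.4%).

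NKD1 (ENSG00000140807; chromosome 16, 50548330 to 50649249, plus strand) had 15 reads in SIRT7-KO and 46 in USP39-KO, against 50 in the control, or 0.919 and 2.79 CPM against 2.57 CPM. SIRT7-KO was low, and USP39-KO and the control overlapped. The log2 ratio was -1.46 in SIRT7-KO (-2.42 to -0.63) and 0.12 in USP39-KO (-0.49 to 0.73). Directly compared, SIRT7-KO was below USP39-KO by the 2-fold rule (log2 ratio -1.57, -2.55 to -0.74).

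The paralogue NKD2, also a Dishevelled-binding inhibitor, was far more abundant, with 2071 reads in SIRT7-KO and 4046 in USP39-KO, against 4292 in the control. Its log2 ratio was -0.80 in SIRT7-KO (-0.88 to -0.72) and 0.15 in USP39-KO (0.09 to 0.22). NKD1 made up 0.719% of NKD1 and NKD2 reads in SIRT7-KO (0.403 to 1.18%), 1.12% in USP39-KO (0.824 to 1.5%) and 1.15% in the control (0.856 to 1.52%). These intervals overlap, unlike those of the RNF43 and AXIN2 shares against the control. A difference between the libraries in the NKD1 share was not detectable at this depth.

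**Figure D3:**
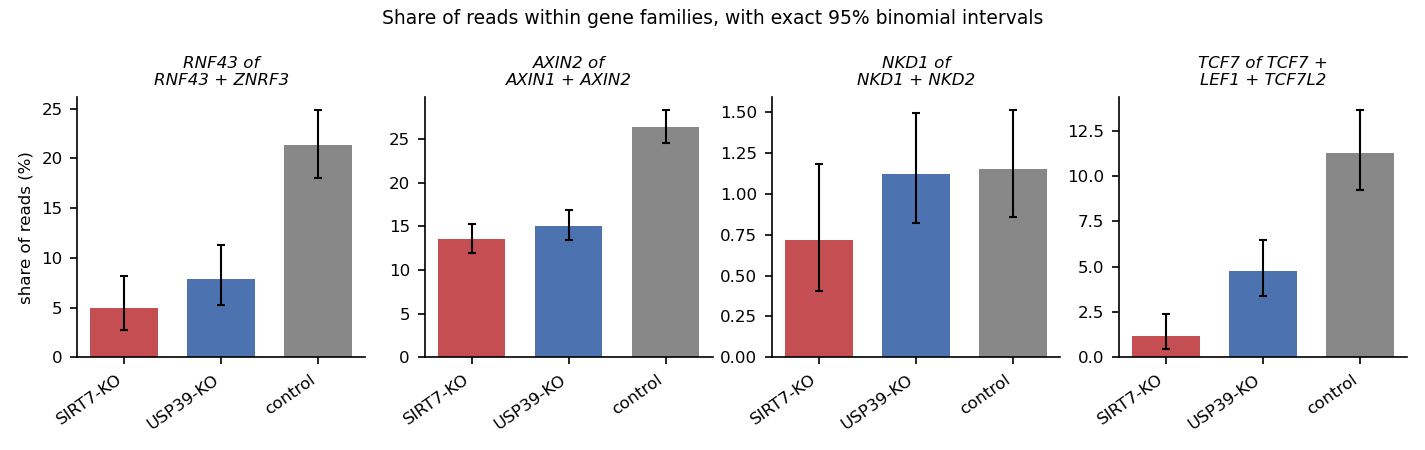
Share of reads (vertical axes, percent, from 0) taken by 1 gene within its family in the SIRT7-KO, USP39-KO and control libraries, with exact 95% binomial intervals. The shares of RNF43, AXIN2 and TCF7 are below the control in both knockouts with intervals that do not overlap the control, while the intervals of the NKD1 share overlap in all 3 libraries.

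The third group acts in the nucleus. CTNNB1 encodes beta-catenin, and TCF7, LEF1 and TCF7L2 encode DNA-binding partners of it. CTNNB1 (ENSG00000168036; chromosome 3, 41194741 to 41260096, plus strand) had 5153 reads in SIRT7-KO and 4906 in USP39-KO, against 5791 in the control, or 315.8 and 298.1 CPM against 298.1 CPM. Its log2 ratio was 0.08 in SIRT7-KO (0.03 to 0.14) and 0.00 in USP39-KO (-0.06 to 0.06). These are transcript levels and do not measure beta-catenin protein, which the pathway controls mainly by degradation.

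TCF7 (ENSG00000081059; chromosome 5, 134114711 to 134151865, plus strand) had 7 reads in SIRT7-KO and 38 in USP39-KO, against 93 in the control. These are 0.429 and 2.31 CPM in the knockouts, against 4.79 CPM in the control, and the 3 Poisson intervals did not overlap. SIRT7-KO was lowest and USP39-KO lay between it and the control.

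The log2 ratio of TCF7 was -3.40 in SIRT7-KO (-4.83 to -2.38) and -1.04 in USP39-KO (-1.64 to -0.49), where USP39-KO was just inside the 2-fold rule. TCF7 had the lowest ratio of the 10 genes in SIRT7-KO, where 0.558% of all genes had a lower one. SIRT7-KO was also below USP39-KO by the rule (log2 ratio -2.35, -3.84 to -1.25). The annotated exons of TCF7 overlap those of SKP1, a gene on the minus strand. SKP1 had 1648 reads in SIRT7-KO and 1643 in USP39-KO, against 1807 in the control. The sources do not say whether counting used strand, so reads in the shared stretch are uncertain here too.

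LEF1 (ENSG00000138795; chromosome 4, 108047545 to 108168956, minus strand) had 210 reads in SIRT7-KO and 341 in USP39-KO, against 284 in the control, or 12.9 and 20.7 CPM against 14.6 CPM. USP39-KO was the high library. The log2 ratio was -0.18 in SIRT7-KO (-0.45 to 0.08) and 0.50 in USP39-KO (0.27 to 0.74), and SIRT7-KO over USP39-KO was -0.69 (-0.94 to -0.43). LEF1 thus lay below 2-fold in all 3 comparisons.

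TCF7L2 (ENSG00000148737; chromosome 10, 112950250 to 113167678, plus strand), the main TCF/LEF factor of many epithelia, had 390 reads in SIRT7-KO and 422 in USP39-KO, against 447 in the control. Its normalized level was 23.9 and 25.6 CPM in the knockouts, against 23.0 CPM in the control. The log2 ratio was 0.05 in SIRT7-KO (-0.14 to 0.25) and 0.16 in USP39-KO (-0.04 to 0.35), and both intervals included 0. Of the reads of TCF7, LEF1 and TCF7L2 together, TCF7 held 1.15% in SIRT7-KO (0.465 to 2.36%) and 4.74% in USP39-KO (3.38 to 6.45%), against 11.3% in the control (9.21 to 13.6%). TCF7L2 held 64.3%, 52.7% and 54.2% of these reads in SIRT7-KO, USP39-KO and the control.

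**Figure D4:**
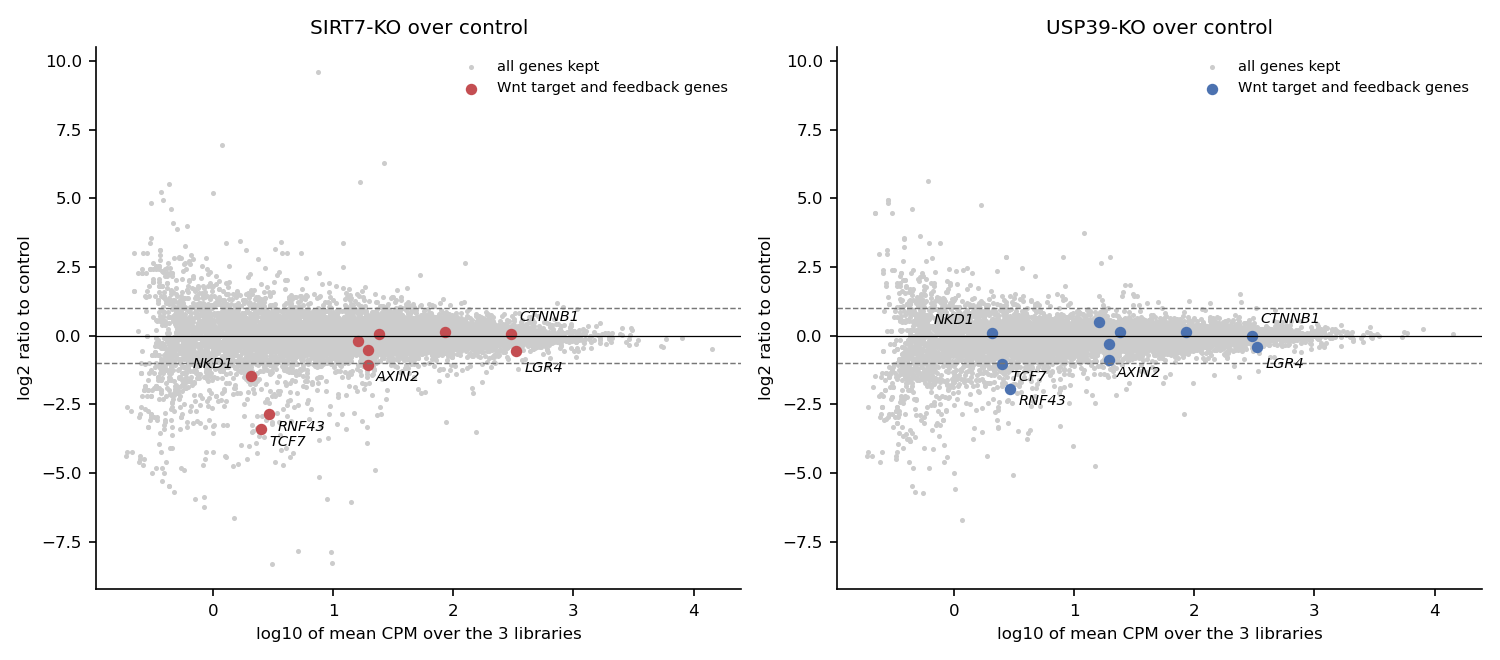
Log2 ratio over the control (vertical axes) against log10 of the mean CPM of the 3 libraries (horizontal axes) for all 12726 genes kept (grey) and the 10 Wnt genes (coloured), in SIRT7-KO (left) and USP39-KO (right); dashed lines mark 2-fold and 6 genes are labelled. RNF43, TCF7 and NKD1, at mean levels under 10 CPM, lie where the spread of all genes is wide, while LGR4 and CTNNB1 lie where it is narrow.

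Per unit of transcript length, the genes spanned a wide range of levels. In FPKM, the authors' counts scaled by listed length and library total, the control had LGR4 highest at 65.6, followed by CTNNB1 at 45.1, AXIN1 at 10.7, AXIN2 at 5.56, TCF7L2 at 4.56, ZNRF3 at 3.35, LEF1 at 2.73, RNF43 at 0.844, NKD1 at 0.524 and TCF7 at 0.476. Neighbours in this order differed beyond counting error except NKD1 and TCF7. The listed length equals the union of exons in GENCODE 29 for 6 of the 10 genes, and for the other 4 (AXIN2, NKD1, TCF7L2 and CTNNB1) it is shorter, which would move their FPKM. The gap was widest for NKD1, listed at 4912 bases against a union of 17425 bases. The orders here and below are by listed length, and the places of these 4 genes depend on the length used.

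In SIRT7-KO, CTNNB1 was highest at 48.3 FPKM by the listed lengths and LGR4 next at 44.9 FPKM, with a ratio of 1.08 (1.03 to 1.12) between them. By the exon union of GENCODE 29, CTNNB1 would be at 26.7 FPKM and LGR4 first, so the order of this pair depends on the length used. AXIN2 at 2.72, LEF1 at 2.43 and ZNRF3 at 2.38 FPKM did not differ as neighbours beyond counting error, and neither did NKD1 at 0.189 and RNF43 at 0.115 FPKM, with TCF7 last at 0.0431 FPKM. In USP39-KO, LGR4 was highest at 48.5 FPKM and CTNNB1 next at 44.7 FPKM. By the listed lengths, TCF7 at 0.227 and RNF43 at 0.216 FPKM shared the lowest places. AXIN2 and ZNRF3 were not distinguishable in USP39-KO, at 2.99 and 2.72 FPKM.

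The direct comparison of SIRT7-KO with USP39-KO placed 2 of the 10 genes, NKD1 and TCF7, lower in SIRT7-KO and 0 higher, where 3.51% of all 12726 genes were lower and 5.03% higher. The intervals of LGR4 and LEF1 lay below 0 and that of CTNNB1 above 0 (log2 ratio 0.08, 0.03 to 0.14), each within 2-fold. Those of RNF43, ZNRF3, AXIN1, AXIN2 and TCF7L2 included 0.

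Other genes of the pathway were read from 9 lists, 142 genes without the 10, all of them in the table. The lists were written from textbook knowledge of the pathway, with earlier results for a few of their genes, such as EPHB2, MYC and CDH1, already known. Of these, 98 passed the count filter and 27 had no read in any library. In SIRT7-KO, 7 of the 98 (7.14%) were lower by the 2-fold rule and 2 (2.04%) higher, against 4.05% and 3.02% of all genes. In USP39-KO, 4 (4.08%) were lower and 1 (1.02%) higher, against 3.37% and 1.49%. Directly compared, 4 (4.08%) were lower in SIRT7-KO than in USP39-KO and 4 (4.08%) higher, against 3.51% and 5.03%. These shares rest on few genes and were not tested. The median log2 ratio of the 98 was -0.01 in SIRT7-KO, against -0.01 over all genes, and 0.04 in USP39-KO, against 0.00 over all genes.

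Among 19 Wnt ligands, 9 passed the count filter, with a median of -0.43 in SIRT7-KO and -0.31 in USP39-KO. WNT10B was the most abundant per length (80.1 FPKM in the control), with 2005 reads in SIRT7-KO and 2801 in USP39-KO, against 4091 in the control, and log2 ratios of -0.78 and -0.31 in the knockouts. WNT6 was lower by the rule in both, with 6 reads in SIRT7-KO and 2 in USP39-KO, against 21 in the control. WNT1 was lower in SIRT7-KO (9 reads, against 41 in the control; log2 ratio -1.88, -3.16 to -0.87), and WNT11 in USP39-KO (25 reads, against 69; -1.21, -1.95 to -0.55). All 3 ligands had few reads, and the intervals are wide.

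Of 9 genes for ligand processing and R-spondins, 3 passed the filter, and 5 had no read, among them PORCN, the acyltransferase that lipidates Wnt proteins. RSPO3, a ligand of LGR receptors, was lower in both knockouts, with 4 reads in SIRT7-KO and 5 in USP39-KO, against 19 in the control. The Wnt carrier WLS, the most abundant, had log2 ratios of -0.42 in SIRT7-KO and 0.07 in USP39-KO. Of 18 receptors and co-receptors, 15 passed the filter with medians of 0.03 in both knockouts. FZD3 was the 1 receptor past the rule against the control, with 20 reads in SIRT7-KO and 51 in USP39-KO, against 59 in the control (log2 ratio -1.29 in SIRT7-KO, -2.12 to -0.56). Directly compared, FZD3 and FZD6 were lower by the rule in SIRT7-KO than in USP39-KO. FZD6 had 868 reads in SIRT7-KO and 2158 in USP39-KO (log2 ratio -1.30, -1.42 to -1.19). FZD10, the most abundant per length, had -0.14 in SIRT7-KO and -0.36 in USP39-KO.

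None of 23 measured genes of the destruction complex and cytoplasmic relay passed the rule in either knockout against the control. Their log2 ratios ran from -0.35 to 0.48 in SIRT7-KO and from -0.31 to 0.39 in USP39-KO. The Dishevelled gene DVL1, the most abundant per length, had 0.09 in SIRT7-KO and -0.17 in USP39-KO. None of 6 measured secreted and membrane inhibitors passed it either, with medians of 0.49 in SIRT7-KO and 0.22 in USP39-KO, and NKD2 was the most abundant. None of 17 measured nuclear cofactors and corepressors passed it. Their medians were -0.06 in SIRT7-KO and 0.05 in USP39-KO, and the histone deacetylase HDAC1 was the most abundant, at 0.17 and 0.05. Directly compared, 1 of these inhibitors and 1 of these cofactors were higher by the rule in SIRT7-KO than in USP39-KO. No gene of the destruction complex list passed the rule there.

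Of 23 other Wnt target genes, 15 passed the filter. EPHB2, an Ephrin receptor of the intestinal crypt, was lower in both knockouts, with 22 reads in SIRT7-KO and 14 in USP39-KO, against 200 in the control (log2 ratios -2.91 and -3.55). BAMBI, a pseudoreceptor that dampens TGF-beta signalling, was lower in SIRT7-KO (144 reads, against 413 in the control; log2 ratio -1.27, -1.55 to -0.99), and had -0.73 in USP39-KO. ID2, an inhibitor of basic helix-loop-helix factors, was higher in SIRT7-KO, with 1111 reads, against 586 in the control (1.17, 1.03 to 1.32), and 0.47 in USP39-KO.

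MYC, the most abundant target, had log2 ratios of -0.24 in SIRT7-KO (-0.28 to -0.20) and -0.17 in USP39-KO (-0.21 to -0.13). The list median was -0.20 in SIRT7-KO and -0.01 in USP39-KO, and the targets past the rule included both lower and higher genes. Of 8 genes of the liver zonation list, which also holds AXIN2, 5 passed the filter. The glutamate transporter SLC1A2 was higher in both knockouts, with 215 reads in SIRT7-KO and 167 in USP39-KO, against 85 in the control (log2 ratios 1.58 and 1.21). GLUL, glutamine synthetase and the most abundant of that list, had -0.19 in SIRT7-KO and -0.53 in USP39-KO.

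Of 8 cadherins and catenins, 6 passed the filter. CDH1, E-cadherin, which binds beta-catenin at junctions, was lower by the rule in SIRT7-KO, with 8 reads, against 24 in the control (log2 ratio -1.28, -2.70 to -0.13), and had 28 reads in USP39-KO. CTNNA1, alpha-catenin and the most abundant, had 0.05 in SIRT7-KO and 0.29 in USP39-KO.

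**Figure D5:**
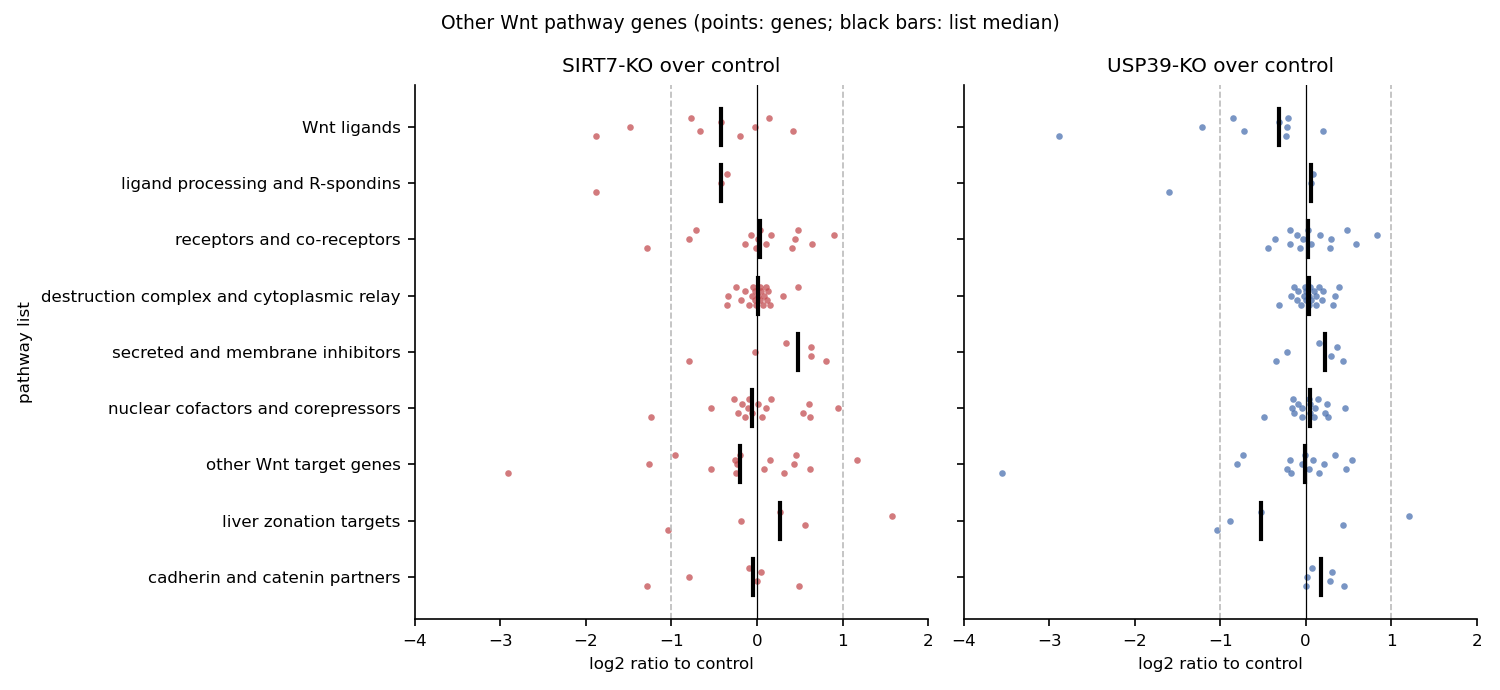
Log2 ratio over the control (horizontal axes) of the measured genes of 9 lists of other Wnt pathway genes in SIRT7-KO (left) and USP39-KO (right); points are genes, black bars list medians and dashed lines 2-fold, and the liver zonation list includes AXIN2. The destruction complex genes lie within 2-fold in both panels, and the points farthest to the left are EPHB2, at -2.91 in SIRT7-KO and -3.55 in USP39-KO.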

How the data were processed

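Libraries were made from Trizol-extracted RNA with an Illumina TruSeq RNA kit, per the labels' protocols. The sources used here do not give the aligner, counting program, strand setting, genome build or annotation. Per the file headers, the authors deposited raw read counts, a gene length and FPKM. The deposited FPKM equal the counts scaled by listed length and library total for every gene with reads, within a relative tolerance of 1e-06.

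GENCODE 29, supplemented by a gene name table, gave symbols to 19649 of 22827 identifiers. TMM factors from edgeR 4.0.16 (1.0104 for SIRT7-KO, 0.9896 for USP39-KO and 1.0000 for the control) gave normalized library sizes for CPM. The prior added before log2 ratios was 0.5 counts, in proportion to library size. Intervals are exact conditional binomial (Clopper-Pearson) at 95%. Intervals and floors describe counting error alone and treat every read as independent. Reads lacking molecular identifiers may be copies of 1 molecule, so the intervals may be too narrow even for counting error. The floor for 0 reads is 3 counts, which is 0.184 CPM in SIRT7-KO, 0.182 in USP39-KO and 0.154 in the control. A gene was kept if any library had 10 counts or more. Single libraries give no estimate of dispersion, so no p-value is given. The steps were tested on simulated counts with counting error only. Changes were placed in well-counted genes, so the simulation did not cover changes in genes as low as RNF43, NKD1 and TCF7.

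The members and lists were chosen with earlier results of these data known. From each list, genes past the 2-fold rule in either knockout (at most 4) and the most abundant gene by FPKM in the control are named. NKD2, FZD6, SUPT4H1, SKP1, PORCN, HNF4A, FGB, EPCAM, KRT8, COL1A1, RPL7A and RPS18 were named after their values were seen. Alternatives were DESeq2 1.42.0 size factors, library totals with and without mitochondrial-genome genes, other count filters, other priors and a 1.5-fold rule.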

Additional observations from a re-analysis of the deposited data

How the results depend on the processing

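No paired analysis was possible because each group had 1 library, and for the same reason no library could be left out. All 204 single-gene log2 ratios of the 10 genes recomputed under other normalizations, filters and priors stayed within their counting intervals, and 0 of their calls changed. A count filter does not enter a ratio, so under other filters the values were the same by construction. Only the normalizations and priors could move them, and genes that a filter removed were left out of the 204. Of the genes called lower, TCF7 in USP39-KO was nearest to the threshold and ranged from -1.06 to -1.02. AXIN2 in SIRT7-KO, the next nearest, ranged from -1.05 to -1.03. Normalization moved the median of all genes by at most 0.03 on the log2 scale.

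The counts of genes depended on the filter. When 100 counts were required in some library, TCF7 and NKD1 were no longer among the genes kept, so 2 of the remaining 8 (RNF43 and AXIN2) were lower in SIRT7-KO, 1 (RNF43) in USP39-KO, and 0 in SIRT7-KO against USP39-KO. Of all 10181 genes kept by that filter, 136 were higher and 210 (2.06%) lower for SIRT7-KO, 48 and 126 (1.24%) for USP39-KO, and 281 and 221 (2.17%) for SIRT7-KO against USP39-KO. Of 85 other pathway genes kept, 2 were lower in SIRT7-KO, 1 in USP39-KO and 1 in SIRT7-KO against USP39-KO.

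With a 1.5-fold rule, 4 of the 10 genes were lower in SIRT7-KO, 3 in USP39-KO (AXIN2 was added) and 3 in SIRT7-KO against USP39-KO (LEF1 was added). The numbers of all genes higher and lower were 917 and 997 (7.83%) in SIRT7-KO, 406 and 814 (6.40%) in USP39-KO, and 1316 and 1006 (7.91%) in SIRT7-KO against USP39-KO. Of the 98 other pathway genes, the numbers were 10 and 12 in SIRT7-KO, 2 and 8 in USP39-KO, and 12 and 10 in SIRT7-KO against USP39-KO. Depth limits RNF43, NKD1 and TCF7 most, since each rests on 7 to 27 reads in at least 1 knockout.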

Other observations

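For each of the 4 genes past the 2-fold rule in a knockout, the 3 most similar genes were found among 10181 genes that reached 100 counts in some library. Similarity was the Euclidean distance in the pair of log2 ratios (SIRT7-KO and USP39-KO over control), a description over 3 libraries that share the control. Nearest to RNF43 were FST, ZFP3 and ABCB1, at distances of 0.144, 0.332 and 0.459. FST, the activin-binding protein follistatin, had 44 reads in SIRT7-KO and 93 in USP39-KO, against 380 in the control. Nearest to AXIN2 were IL6, UNC13A and CADM4, at 0.00399, 0.0781 and 0.104. IL6, a cytokine, had 66 and 75 reads in SIRT7-KO and USP39-KO, against 163 in the control. Nearest to NKD1 were AJUBA, FOXE1 and HOXB7, at 0.0661, 0.108 and 0.141. AJUBA, a LIM-domain protein, had 668 reads in SIRT7-KO and 1882 in USP39-KO, against 2119 in the control. Nearest to TCF7 were SH3GL2, HERC5 and REEP1, at 0.227, 0.332 and 0.427. The distances leave out counting error. For each of the 4 genes the interval of the SIRT7-KO ratio is wider than its distances (-4.83 to -2.38 for TCF7). Which genes are nearest, and in what order, is therefore not resolved.

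The 5 nearest measured genes on each side of these 4 on the chromosome were read in the same way. None of them was lower by the 2-fold rule in SIRT7-KO, where 4.05% of all genes were lower and 3.02% higher. TOX3 and FSTL4 were lower in USP39-KO, where 3.37% of all genes were lower and 1.49% higher. These counts rest on few genes and were not tested. Around RNF43, the 10 neighbours had a median log2 ratio of -0.11 in SIRT7-KO and 0.08 in USP39-KO, and SEPT4 was higher in both knockouts (10 and 10 reads in SIRT7-KO and USP39-KO, against 2 in the control). Around AXIN2, 0 of 10 passed the rule in either direction, with medians of 0.10 in SIRT7-KO and -0.16 in USP39-KO. Around NKD1, the medians were 0.13 and -0.06, and TOX3 was higher in SIRT7-KO and lower in USP39-KO (431 and 51 reads, against 176 in the control). Around TCF7, the medians were 0.00 and -0.03, and FSTL4 was lower in USP39-KO (3649 reads in SIRT7-KO and 2192 in USP39-KO, against 5562 in the control).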
